A study of Mus musculus with 13 samples.

Results

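Setdb1, Ehmt1, Ehmt2, Suv39h1, Suv39h2, Ezh1, Ezh2, Eed and Suz12 code for enzymes and core subunits that methylate histone H3 at lysine 9 or lysine 27. The 9 genes were chosen by symbol, with no rule on their values but with earlier results of these data known. All 9 were found among the 18939 genes of the count tables and the 49686 genes of the FPKM table. They were measured in 13 single mouse oocytes by SMART-seq2, a method that copies RNA with a poly(A) tail from 1 cell. The oocytes came from C57BL/6 females of 3 to 4 weeks, 48 h after PMSG, a hormone that makes follicles grow. At the germinal vesicle (GV) stage, the prophase arrest of the grown oocyte, they were injected with mRNA for FBL–GFP, a tagged nucleolar protein, and for H2B-mCherry, a tagged histone, held for 6 h in 10 μM Cilostamide, which keeps them arrested, and sorted by the FBL–GFP pattern. An SN oocyte has chromatin around its nucleolus and an NSN oocyte does not. The 4 groups were 3 NSN GV oocytes, 3 SN GV oocytes, and oocytes of each type released from the inhibitor and matured in culture to metaphase II (MII), here 3 NSN-MII and 4 SN-MII oocytes. All of them, the SN oocytes included, carried the injected mRNAs and passed through the inhibitor, and no source used here ties an oocyte to an animal, so the p-values measure the spread between these libraries.

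Methylation of H3 lysine 9 marks silent chromatin. SETDB1 places the trimethyl mark on retroelements in the oocyte, GLP (from Ehmt1) and G9a (from Ehmt2) work as a pair on the mono- and dimethyl marks, and SUV39H1 and SUV39H2 place the trimethyl mark on pericentromeric repeats. Lysine 27 is methylated by polycomb repressive complex PRC2, in which EZH2 or its paralogue EZH1 is the enzyme and EED and SUZ12 are the subunits without which it does not work. In the oocyte PRC2 sets marks on maternal chromatin that pass to the embryo.

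The 3′ ends of these transcripts are shown because the libraries were primed on poly(A), and because maturing oocytes lengthen the poly(A) tails of stored mRNAs that carry a cytoplasmic polyadenylation element (CPE) and shorten those of others. A gene's reads therefore follow both the amount and the tail of its mRNA, and the 2 cannot be told apart here. In 1 GENCODE M21 transcript per gene on GRCm38 (mm10), the last 100 bases were searched on the sense strand for the CPE letters TTTTAT or TTTTAAT, and the last 40 bases for the poly(A) signal AATAAA or ATTAAA. A CPE was found in 3 of the 9 genes, against 16.5% of 21724 protein-coding genes, and a poly(A) signal in 8, against 69.4%. The 3 genes with a CPE are given first, then 3 genes without one, each in the 3′ untranslated region of the last exon with the matched letters in capitals. The windows lie on the minus strand at chr3:95323553-95323582 for Setdb1, chr7:89954703-89954732 for Eed, chr2:3455824-3455853 for Suv39h2, chr2:24789932-24789961 for Ehmt1, chr11:101191117-101191146 for Ezh1 and chr6:47530152-47530181 for Ezh2.
Setdb1, CPE: gacacagtcatgTTTTATttaacctttaat
Eed, CPE: aagctgtgttatTTTTATtgtgatggaaac
Suv39h2, CPE and poly(A) signal: ctttttTTTTAATaacagAATAAAcaccat
Ehmt1, poly(A) signal: caaagtttcactAATAAAaaccgtgctgga
Ezh1, poly(A) signal: gacctcttatctAATAAAgtgttaagactc
Ezh2, poly(A) signal: tatttaataaccAATAAAcatactggcata
In Suv39h2 the CPE lay 12 bases before the poly(A) signal, in Setdb1 26 bases before it and in Eed 29. The last bases of Suz12-201 held neither motif. Which 3′ end the oocytes used was not measured, and a match is no evidence that a site is used.

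The libraries held 7140416 to 8846287 counts each. The scaling factors (TMM) moved with stage, from 1.06 to 1.26 at GV and from 0.799 to 1.01 at MII, and they set the zero of the comparison between stages. NSN-MII 3 had the fewest genes detected, 11593. All 13 oocyte markers averaged over 1 FPKM in each group. Of these, Zp3 lay at 2479 to 3614 FPKM at GV and at 42.7 to 275 at MII, and Gdf9 at 2300 to 4218 and 4238 to 6154. Of 11 cumulus and granulosa cell markers, Fshr reached 1.06 FPKM at GV and was listed at 0 in all MII oocytes. Their summed FPKM was 27.7 to 35.5 in SN GV, 29.97 to 31.6 in NSN GV, 34.6 to 44.7 in SN-MII and 35.6 to 59.8 in NSN-MII oocytes, most of it from Cyp19a1, which had 16.8 to 27.6 FPKM at GV and 30.2 to 53.1 at MII, and its part in the results was not tested.

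The catalytic subunit Ezh2 and its partner Eed were the most abundant of the 9 transcripts, and the Suv39h1 and Ehmt2 transcripts were near the limit of detection. Levels of different genes were compared in FPKM, which is scaled by transcript length. At GV the mean was 143 ± 10.1 FPKM (SD, n = 6) for Ezh2, 88.3 ± 10.2 for Eed and 55.3 ± 19.8 for Setdb1. Ezh1 followed at 21.5 ± 5.53, Ehmt1 at 18.4 ± 5.94 and Suz12 at 13.1 ± 4.21 FPKM. Suv39h2 had 3.62 ± 1.12 FPKM, while Ehmt2 and Suv39h1 had 1.005 ± 0.675 and 1.002 ± 0.560. Ezh2 exceeded Eed, and Eed exceeded Setdb1, in each of the 6 GV oocytes without overlap. Setdb1 was above Ezh1 in all 6, Ezh1 above Ehmt1 in 5 and Ehmt1 above Suz12 in 5, with ranges that overlapped between each pair. Ehmt2 and Suv39h1 could not be ordered, since Ehmt2 was higher in 4 of 6.

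At MII the order kept its ends and closed in the middle. Ezh2 had 267 ± 29.1 FPKM (SD, n = 7) and Eed 127 ± 15.4. Setdb1, Ehmt1 and Ezh1 then lay together at 43.9 ± 10.7, 43.5 ± 10.4 and 40.3 ± 4.58 FPKM, and neither neighbour stood above the next in more than 4 of 7 oocytes. Suz12 had 30.4 ± 7.14 and Suv39h2 5.58 ± 1.90 FPKM, both clear of the gene below. Ehmt2 had 0.513 ± 0.358 FPKM and Suv39h1 0.0886 ± 0.0840. Among all genes with a value, Ezh2 stood at the 98.4th percentile of the MII means and Suv39h1 at the 23.7th.

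The first comparison asked how the transcripts of each enzyme stood before and after maturation, over both oocyte types. The PRC2 transcripts Suz12, Ezh1, Ezh2 and Eed and the H3 lysine 9 transcripts Ehmt1 and Suv39h2 were higher in MII oocytes, and Setdb1 did not pass the test. Ehmt2 had too few counts to be tested. Suv39h1 passed the filter on low counts only through the GV libraries, and since a gene that passes only in this way has to be lower at MII, its levels are described below without a test between stages. The other 7 genes passed the filter at each stage: 6 were called higher and 0 lower at an adjusted p under 0.05, and at an unadjusted p under 0.05 the same 6 passed. Among the 9670 genes that passed at each stage 69.7% were called, 36.3% higher and 33.4% lower, with a median log2 fold change of 0.11, against 1.02 over the 7 genes. Scaling by total counts alone moved the median of all 11375 genes tested from -0.10 to -0.39, and each log2 value below is to be read against that shift. CPM and FPKM are relative to the other reads of a library. A gene that is higher or rises here has a larger share of the reads, and amounts per oocyte were not measured.

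**Figure D1:**
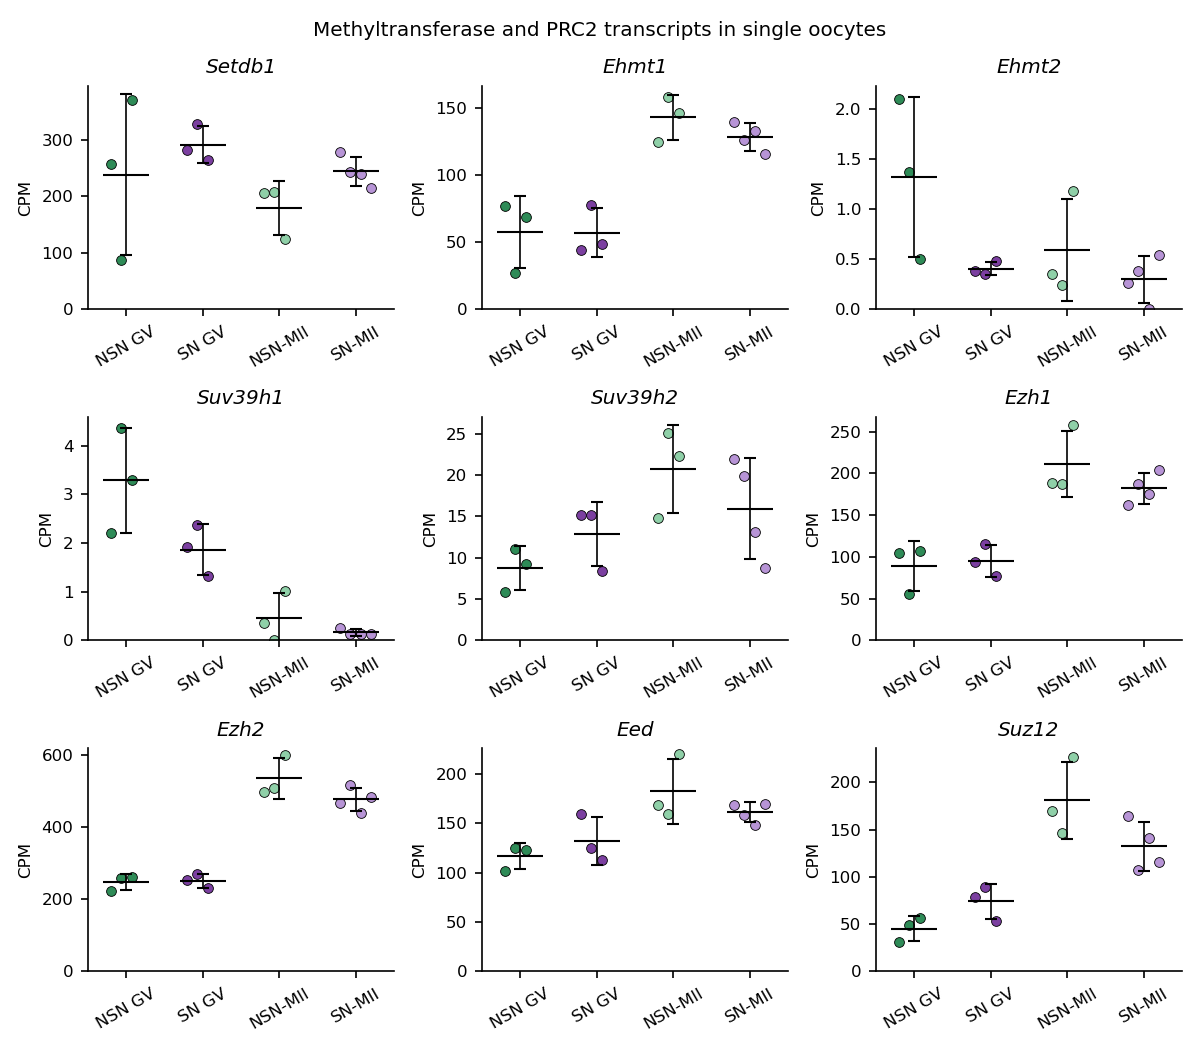
CPM (counts scaled to a common library total with TMM factors, linear axes from 0) of the 9 genes in each of the 13 oocytes; points are oocytes, horizontal lines group means and whiskers SD (n = 3, or 4 for SN-MII). Ehmt1, Ezh1, Ezh2 and Suz12 had every MII oocyte above every GV oocyte, Setdb1 and Eed overlapped, and the Ehmt2 and Suv39h1 axes end near 2 and 4 CPM.

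SETDB1, the enzyme that silences retroelements, had a transcript that varied widely among NSN GV oocytes. Setdb1 (chr3:95323525-95357202, minus strand, 22 exons) had 257, 88.0 and 370.1 CPM in the 3 NSN GV oocytes and 282, 328 and 264 in the 3 SN GV oocytes. It had 206, 207 and 124 CPM in the NSN-MII oocytes and 278, 243, 239.8 and 216 in the SN-MII oocytes. The lowest and the highest value both belonged to NSN GV oocytes, and the stages overlapped. The log2 fold change of -0.34 was not called (SE 0.24, adjusted p = 0.227, quasi-likelihood test of edgeR, Benjamini-Hochberg adjusted). Without NSN GV 2 it was: Setdb1 was then called lower at MII, at -0.54 (edgeR adjusted p = 0.00723), and in NSN oocytes alone at -0.81 (edgeR adjusted p = 0.0106). Setdb1 shares 75 of 4660 exon bases with Cers2 on the other strand (25.9 to 42.3 FPKM at GV, 35.9 to 62.8 at MII), and the library kit does not mark strand.

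Of the G9a–GLP pair, Ehmt1 had the more abundant transcript in every oocyte, in FPKM. Ehmt1 (chr2:24789928-24919614, minus strand, 27 exons), which codes for GLP, had 76.7, 26.8 and 69.0 CPM in NSN GV and 44.6, 78.1 and 48.7 in SN GV oocytes. In the NSN-MII oocytes it had 125, 158 and 146 CPM, and in the SN-MII oocytes 139.5, 126, 133 and 116. No MII oocyte was as low as any GV oocyte. Ehmt1 rose by 1.24 in log2 CPM (SE 0.22, 2.36-fold, edgeR adjusted p = 9.04e-05). The stages touched in FPKM, where SN-MII 4 had 23.5 and SN GV 2 had 27.2. In SN-MII 4 the length that the count and the FPKM of Ehmt1 imply was 138% of the gene's mean, and in SN GV 1 it was 82.0%, a 1.68-fold range that exceeds the median of 1.19 over genes, and the rise passed the test on either unit.

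Ehmt2 (chr17:34898469-34914052, plus strand), which codes for G9a, had 2.10, 1.37 and 0.506 CPM in NSN GV, 0.382, 0.355 and 0.478 in SN GV, 0.357, 0.247 and 1.18 in NSN-MII and 0.265, 0.385, 0 and 0.545 in SN-MII oocytes. These values stand for 0 to 20.0 counts. The 2 highest were NSN GV oocytes. All 3 NSN GV oocytes lay above the SN GV oocytes in CPM and in FPKM. Of the genes tested at GV, 6.04% in CPM and 7.33% in FPKM separated these groups in either direction. The Ehmt2 counts, 3.74 to 20.0 against 2.97 to 4.02, overlapped, and all other pairs of groups overlapped. Beside Ehmt2, Ehmt1 made up 93.9% of the summed FPKM of the pair at GV on average and 98.6% at MII.

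Of the SUV39H enzymes, Suv39h2 had the more abundant transcript at both stages. Suv39h2 (chr2:3455815-3475031, minus strand, 6 exons) had 5.88, 11.1 and 9.23 CPM in NSN GV and 15.2, 15.1 and 8.37 in SN GV oocytes. At MII it had 14.9, 25.1 and 22.3 CPM in NSN-MII and 22.02, 19.9, 13.1 and 8.72 in SN-MII oocytes. SN-MII 3 and SN-MII 4 were within the range of the SN GV oocytes. Among NSN oocytes every MII value was above every GV value, as for 31.9% of the genes that passed the filter at each stage. Over both types Suv39h2 rose by 0.78 in log2 CPM (SE 0.28, edgeR adjusted p = 0.0194), a call that was lost without SN GV 3 (edgeR adjusted p = 0.0553), without NSN GV 1 (0.0511), with total counts (0.121) and with limma on FPKM (0.0690 to 0.125). Suv39h2 shares 357 of 4327 exon bases with Dclre1c on the other strand, a repair nuclease gene with 1.46 to 5.28 FPKM at GV and 5.44 to 10.7 at MII, so reads in the shared stretch cannot be told apart.

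Suv39h1 (chrX:8061171-8074760, minus strand) had 2.20, 4.37 and 3.29 CPM in NSN GV and 1.91, 2.36 and 1.32 in SN GV oocytes. It had 0.357, 0 and 1.01 CPM in NSN-MII and 0.265, 0.128, 0.131 and 0.136 in SN-MII oocytes. All GV oocytes were above all MII oocytes, on 11.4 to 35.4 counts against 0 to 6.19. The SN-MII libraries were all under 3 counts. The mean of the SN GV oocytes, which ran from 1.32 to 2.36 CPM, was 4.56 times a floor of 3 counts per library (0.409 CPM). That value is no bound on a fall, since Suv39h1 passed the filter only through the GV libraries.

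Suv39h1 lies across a far more abundant antisense transcript. Its exons share 551 of 4971 bases with Gm14820, an antisense transcript on the plus strand (chrX:8042943-8074619), and Gm14820 had 382.9 ± 45.3 FPKM at GV (SD, n = 6) and 39.1 ± 8.11 at MII (SD, n = 7). The mean of Gm14820 was 9.78 times higher at GV than at MII. Suv39h1 had a mean of 1.002 FPKM at GV. No fold between the stages is drawn for Suv39h1, since it passed the filter only through the GV libraries. RSEM writes reads shared between genes as fractions, and the Suv39h1 count was not a whole number in 12 of 13 libraries. Fractions were also found for Setdb1 in 11 libraries, for Ehmt2, whose exons overlap no other annotated gene, in 7, and for Suv39h2, in spite of its overlap with Dclre1c, in 2. Reads of the shared stretch cannot be told apart by strand, and the part of Gm14820 in the lower Suv39h1 values at MII was not tested.

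All 4 PRC2 transcripts were higher at MII, and Ezh2 had the smallest standard error. Ezh2 (chr6:47530139-47595341, minus strand, 20 exons), the main catalytic subunit, had 222, 259 and 263 CPM in NSN GV and 252, 269.9 and 232 in SN GV oocytes. It had 498, 507 and 600.4 CPM in NSN-MII and 465.8, 518, 440.4 and 484 in SN-MII oocytes. The lowest MII oocyte stood above the highest GV oocyte, and in CPM the types overlapped within each stage. In FPKM, which is scaled by library size without the TMM factors, the NSN-MII oocytes, at 284 to 303, all lay above the SN-MII oocytes, at 229 to 255. Ezh2 rose by 1.02 in log2 CPM (SE 0.12, 2.02-fold, edgeR adjusted p = 1.32e-06).

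Ezh1 (chr11:101191115-101226463, minus strand, 21 exons), the paralogous enzyme known from non-dividing cells, had 105, 55.0 and 107 CPM in NSN GV and 93.4, 115 and 77.1 in SN GV oocytes. It had 189, 187 and 257 CPM in NSN-MII and 162, 187, 175 and 205 in SN-MII oocytes. The stages did not overlap, with NSN GV 2 lowest and NSN-MII 3 highest. Ezh1 rose by 1.09 in log2 CPM (SE 0.18, edgeR adjusted p = 3.9e-05). The MII mean was 2.11 times the GV mean in CPM and 1.88 times in FPKM. At MII the types overlapped in CPM, but in FPKM the NSN-MII oocytes, at 42.02 to 47.6, all lay above the SN-MII oocytes, at 33.6 to 39.8.

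Eed (chr7:89954654-89980983, minus strand, 12 exons), whose product reads the trimethyl mark on lysine 27, had 102, 125 and 123 CPM in NSN GV and 159, 124 and 112 in SN GV oocytes. It had 168, 159 and 220.1 CPM in NSN-MII and 168, 158, 148 and 169.8 in SN-MII oocytes. SN GV 1 lay within the MII range, and NSN-MII 3 stood apart at the top. The rise of Eed, 0.47 in log2 CPM, was the smallest of those called (SE 0.14, edgeR adjusted p = 0.00736), and with total counts it was not called (0.16, edgeR adjusted p = 0.208). In FPKM the stages did not overlap, at 79.5 to 107 at GV and 110.0 to 149 at MII.

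Suz12 (chr11:79993106-80034123, plus strand, 16 exons), which codes for the scaffold subunit of PRC2, had 30.7, 48.9 and 56.4 CPM in NSN GV and 79.2, 89.7 and 53.2 in SN GV oocytes. It had 169, 147 and 227 CPM in NSN-MII and 165, 108, 141 and 116 in SN-MII oocytes. The stages did not overlap, and the lowest values were those of NSN GV oocytes while the highest was NSN-MII 3. In this fit Suz12 had the largest rise of the 7 genes, 1.42 in log2 CPM (SE 0.19, 2.67-fold, edgeR adjusted p = 5.83e-06).

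Of the 7 genes that passed the filter at each stage, Ehmt1, Ezh1, Ezh2 and Suz12 had all MII oocytes above all GV oocytes in CPM, as did 24.4% of all such genes. In FPKM the 4 were Ezh1, Ezh2, Eed and Suz12, and the share of all genes that did so in FPKM was not counted. The 4 genes that rose without overlap in CPM had no CPE in the searched window, and the 3 genes with a CPE, Setdb1, Suv39h2 and Eed, overlapped between stages in CPM, but Eed did not in FPKM. With 9 genes this is a description of the sequences and draws nothing about the element.

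Maturation was then taken within each type. In SN oocytes Ehmt1 rose by 1.17, Ezh1 by 0.94, Ezh2 by 0.92 and Suz12 by 0.84 in log2 CPM, so 4 of the 7 genes were called against 58.1% of all genes that passed the filter at each stage. The edgeR adjusted p was 0.00353 for Ehmt1, 0.00365 for Ezh1, 0.000186 for Ezh2 and 0.0117 for Suz12. Suv39h2 (0.31, SE 0.37), Eed (0.29, SE 0.19) and Setdb1 (-0.26, SE 0.33) did not pass. The call of Suz12 was lost without SN GV 3 (0.64, edgeR adjusted p = 0.0768) and with total counts (0.55, edgeR adjusted p = 0.0512). In SN oocytes total counts also changed the split over all genes, from 2858 higher and 3550 lower to 2001 and 3986.

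In NSN oocytes 6 of the 7 genes were called, against 58.3% of all genes. Suz12 rose by 1.997 (3.99-fold, edgeR adjusted p = 2.26e-05), Ehmt1 by 1.31, Suv39h2 by 1.25, Ezh1 by 1.24, Ezh2 by 1.11 and Eed by 0.64 in log2 CPM. Setdb1 did not pass (-0.42, SE 0.35). A pair of these calls leaned on 1 oocyte. Without NSN GV 1 those of Suv39h2 (edgeR adjusted p = 0.0649) and Eed (0.0530) were lost, and without NSN-MII 2 that of Suv39h2 (0.0559).

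**Figure D2:**
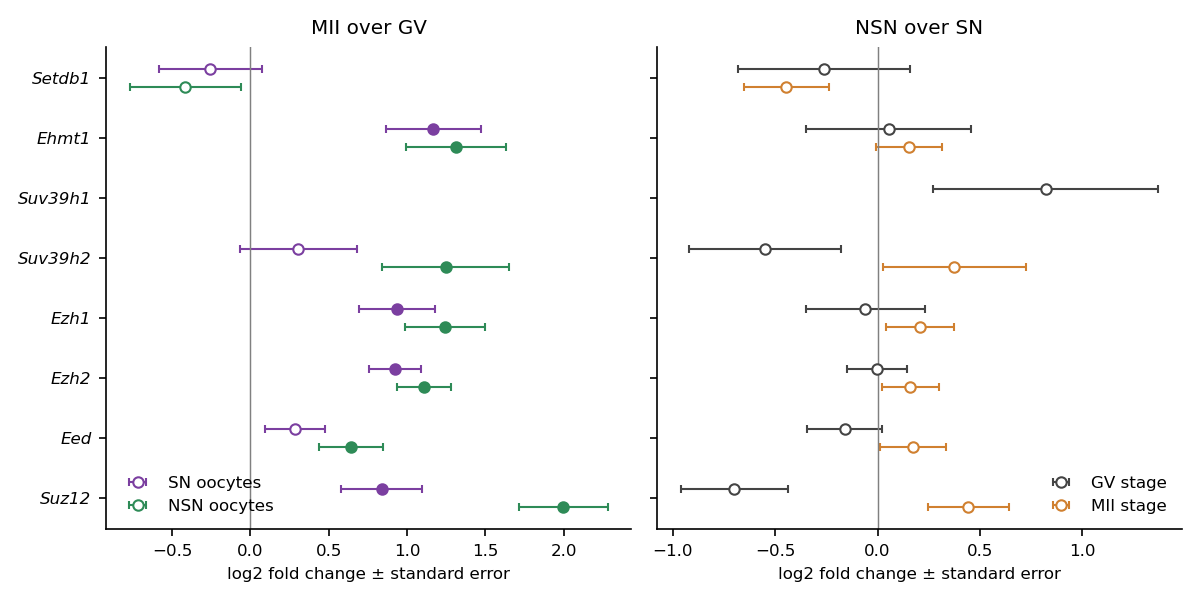
Log2 fold change ± standard error from edgeR, MII over GV within each type (left, 7 genes that passed the filter at each stage) and NSN over SN within each stage (right, with Suv39h1 at GV). Filled circles were called at an adjusted p under 0.05, and none is filled on the right, where Suz12 stands at -0.70 at GV and 0.44 at MII.

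Although 6 genes were called in NSN and 4 in SN oocytes, no gene was called for the difference itself. The interaction of type and stage was called for 0 of the 8 genes and for 2 of 11375 genes (0.0176%) by edgeR, with 606 genes at an unadjusted p under 0.05 and 44 called by DESeq2. Suz12 had the largest interaction of the 8, a log2 difference of 1.16 (SE 0.37, unadjusted p = 0.00666, edgeR adjusted p = 0.667), and every other gene had an unadjusted p of at least 0.103. For Suv39h2 the difference was 0.94 (SE 0.55) and for Ezh2 0.19 (SE 0.24). Both within-type changes of Suz12 use the same oocytes as the interaction and add nothing to it.

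The comparison of NSN with SN oocytes at GV asked whether chromatin configuration went with the levels of these transcripts before maturation. None of the 8 tested genes was called, and none of the 10839 genes tested (0%) was, with 190 at an unadjusted p under 0.05 and 0 called by DESeq2. Ezh2 was closest to equal, at -0.0032 in log2 CPM (SE 0.146), followed by Ehmt1 (0.05, SE 0.40) and Ezh1 (-0.06, SE 0.29). Suz12 had the largest unadjusted difference on the test, at -0.70 (SE 0.26, unadjusted p = 0.0267, edgeR adjusted p = 0.99997), but NSN GV 3 at 56.4 CPM exceeded SN GV 3 at 53.2. Suv39h1 had 0.82 (SE 0.55), Suv39h2 -0.55 (SE 0.37), Setdb1 -0.26 (SE 0.42) and Eed -0.16 (SE 0.18). In CPM no gene of the 8 separated the 3 NSN from the 3 SN oocytes, as 6.04% of all genes did. In FPKM Suv39h1 did, at 0.85 to 1.97 in NSN GV and 0.45 to 0.84 in SN GV oocytes, as 7.33% of all genes did, and the other 7 overlapped. Ehmt2, which was not tested, lay higher in all 3 NSN GV oocytes in both units, on the few counts given above.

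After maturation the result was the same for the calls. Of the 9 genes 7 were tested between NSN-MII and SN-MII and 0 were called, against 26 of 10028 genes (0.259%), 1 higher and 25 lower in NSN-MII. That count ranged from 2 without NSN-MII 1 to 233 without NSN-MII 3, DESeq2 called 219, and none of these settings called any of the 9 genes. Suz12 had a log2 difference of 0.44 (SE 0.20, unadjusted p = 0.0456, edgeR adjusted p = 0.515). Setdb1 had -0.44 (SE 0.21, unadjusted p = 0.0522, edgeR adjusted p = 0.531). For Setdb1 all 3 NSN-MII oocytes lay below all 4 SN-MII oocytes in CPM, but in FPKM NSN-MII 1 at 46.8 was above SN-MII 4 at 37.4. Ezh1 and Ezh2 overlapped in CPM but in FPKM lay higher in all 3 NSN-MII than in all 4 SN-MII oocytes. Of all genes tested at MII, 10.2% separated these groups in either direction in CPM, and 10.2% in FPKM. By direction, 5.56% lay lower in NSN-MII in CPM and 5.62% lay higher in FPKM. The other 5 genes had log2 differences of 0.15 to 0.38, all with standard errors of 0.14 to 0.35.

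Over the 8 tested genes and both stages 32 values were the lowest or the highest of their stage in CPM, and 6 of them came from NSN-MII 3 and 4 each from NSN GV 1, NSN GV 2 and SN GV 2. NSN GV 2 was the lowest GV oocyte for Setdb1, Ehmt1 and Ezh1, and NSN GV 1 for Suv39h2, Ezh2, Eed and Suz12, as they were for 25% and 26.4% of all genes. SN GV 2 was the highest GV oocyte for Ehmt1, Ezh1, Ezh2 and Suz12, as for 15.9% of all genes, and NSN GV 2 the highest for Suv39h1. NSN-MII 3, the library with the smallest scaling factor and the fewest genes, was the highest MII oocyte for Suv39h1, Ezh1, Ezh2, Eed and Suz12, as for 21.9% of all genes, and the lowest for Setdb1, as for 22.4%. Without NSN-MII 3 no call of the 9 genes between stages was lost.

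Between oocytes of the same group Ezh2 varied little and Setdb1 much. The SD of log2 CPM within groups was 0.122 for Ezh2, smaller than in all but 1.16% of 947 genes of similar level, and 0.194 for Eed, where 12.6% of 2070 genes were smaller. For Setdb1 it was 0.557, above 92.7% of 1484 genes, and for Ehmt1 0.451, above 79.8% of 2614. The values of Setdb1 and Ehmt1 rested on NSN GV 2, without which the SD was 0.278 and 0.246, and that of Ezh1 fell to 0.213 without it. Suz12 (0.358), Ezh1 (0.325) and Suv39h2 (0.492) lay near the middle of their levels. By group Setdb1 ran from 88.0 to 370.1 CPM in NSN GV, from 264 to 328 in SN GV, from 124 to 207 in NSN-MII and from 216 to 278 in SN-MII oocytes.

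**Figure D3:**
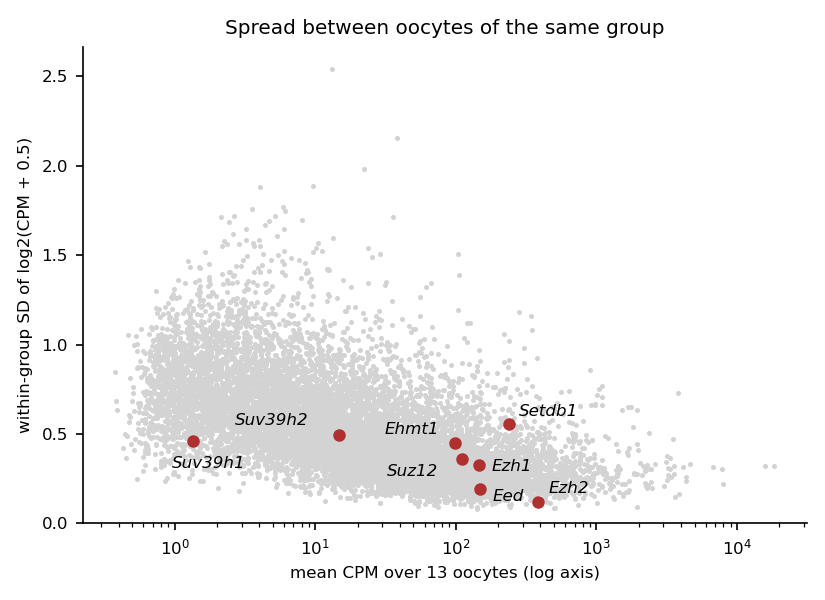
Standard deviation of log2(CPM + 0.5) between oocytes of the same group (pooled over the 4 groups) against mean CPM over the 13 oocytes (log axis), for all tested genes (grey) and the 8 tested methyltransferase and PRC2 genes (red). Ezh2 lies at the lower edge of the cloud at 0.122 and Setdb1 near its upper edge at 0.557.

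Ratios of related transcripts, taken in FPKM within each oocyte, showed which balances held through maturation. The ratio of Ezh2 to Ezh1 had a median of 6.50 at GV (4.93 to 12.0) and 6.54 at MII (5.83 to 7.49), and the highest value came from NSN GV 2, where Ezh1 was low. Eed per Ezh2 ran from 0.514 to 0.749 at GV and from 0.409 to 0.547 at MII, and the stages overlapped through SN GV 2. Suz12 per Ezh2 was lowest in NSN GV oocytes, at 0.0566 to 0.0853, against 0.0961 to 0.123 in SN GV and 0.0857 to 0.133 in MII oocytes, and the NSN GV range ended just under the others.

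The Suv39h2 to Suv39h1 ratio was 1.77 to 2.93 in NSN GV and 5.98 to 7.48 in SN GV oocytes, without overlap, and 18.7 to 124 at MII, where 1 oocyte with Suv39h1 listed at 0 was left out. It inherits the Gm14820 overlap of Suv39h1 and, at GV, rests on Suv39h1 values of 0.45 to 1.97 FPKM. Ehmt2 never exceeded 0.208 of Ehmt1 in FPKM. That ratio also did not overlap between the GV types, at 0.0445 to 0.208 in NSN GV and 0.0147 to 0.0388 in SN GV oocytes, on few Ehmt2 counts. Ratios were described without a test, and how often ratios of other genes separate the GV types was not counted.

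**Figure D4:**
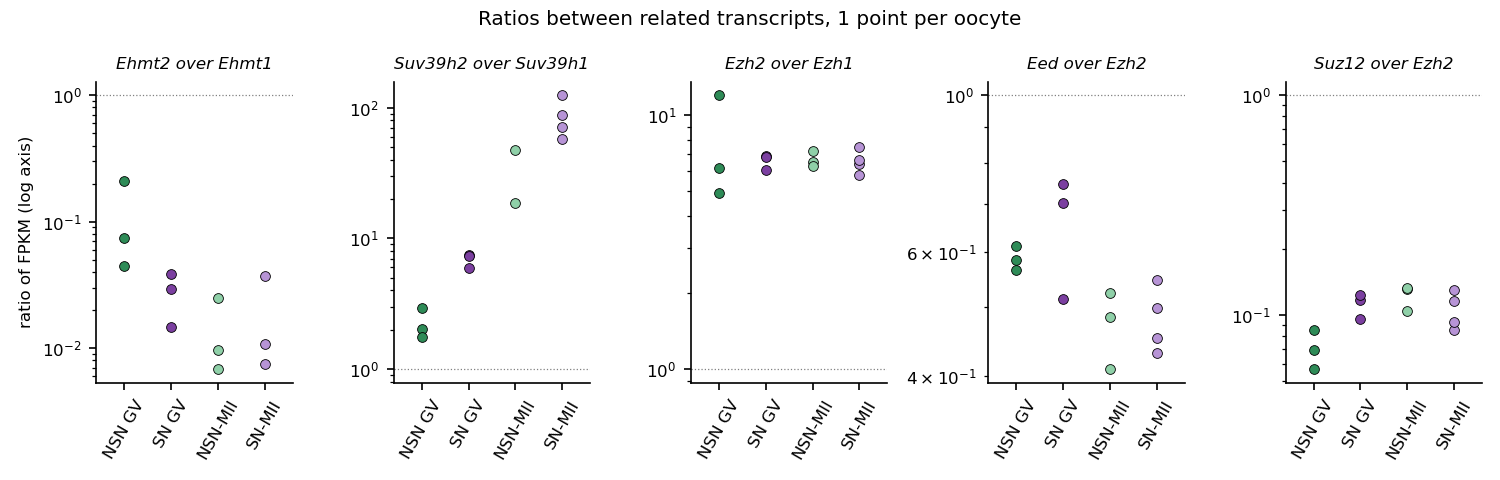
Ratios of FPKM within single oocytes (log axes), 1 point per oocyte and the dotted line at equal FPKM; 1 SN-MII oocyte with Ehmt2 at 0 and 1 NSN-MII oocyte with Suv39h1 at 0 are not drawn. Ezh2 over Ezh1 lies between 4.93 and 7.49 but for 1 NSN GV oocyte at 12.0, and Suz12 over Ezh2 lies lower in the 3 NSN GV oocytes than in the others.

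The partners, readers and erasers of the same marks were followed in a list of 60 genes of the count tables. Over both types 54 were tested between MII and GV, of which Kdm4b, Kdm4d, Cbx7 and Cbx8 passed the filter only through the GV libraries and are left out of the counts. Of the other 50, 28 were called higher, 9 lower and 13 were not called, with a median of 0.94, against 36.3% higher and 33.4% lower over all genes and a median of 0.11. The lists below are each to be read against these shares. With total counts 26 were higher and 11 lower, and no called gene changed sign. Between NSN and SN oocytes 0 of 54 were called at GV and 0 of 50 at MII by edgeR, with 0 and 7 at an unadjusted p under 0.05, and DESeq2 called none either.

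Among the accessory PRC2 subunits and the lysine 27 demethylases every called gene was higher at MII. Of 8 histone-binding and accessory PRC2 subunits 7 were tested and 6 were higher, against 36.3% of all genes, with a median of 1.27. Phf19, a subunit that reads methylated lysine 36, rose most, by 1.57 in log2 CPM (SE 0.28, edgeR adjusted p = 0.00011), from 3.47 to 13.1 CPM at GV to 18.2 to 35.2 at MII. Rbbp4, a histone chaperone shared with other complexes, did not pass (0.15, SE 0.16), and its sign turned with total counts. Both demethylases were higher, Kdm6b by 2.08 (SE 0.21, edgeR adjusted p = 2.33e-07) and Kdm6a by 1.63. Kdm6b had 49.9 to 122 CPM at GV and 293 to 538 at MII, without overlap.

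Of the 19 PRC1 genes, whose products bind the lysine 27 mark or ubiquitylate H2A, 13 passed the filter at each stage, with 6 higher, 4 lower and 3 not called and a median of 0.41, against 69.7% called over all genes. Bmi1 rose by 1.65 in log2 CPM (SE 0.19, edgeR adjusted p = 1.27e-06). Rybp, which codes for a subunit of the noncanonical complexes, fell by 1.498 (SE 0.24, edgeR adjusted p = 3.36e-05). Cbx8, a chromodomain reader, had 4 to 45 counts at GV and 0 to 2 at MII. It passed the filter only through the GV libraries, so no fold is drawn between the stages. Its GV mean was 3.86 times a floor of 3 counts per library (0.506 CPM), and the lowest GV oocyte, at 0.510 CPM, lay just above that floor.

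Among the partners of SETDB1, with Tasor listed under its older symbol Fam208a, 3 of 7 were higher, 2 lower and 2 not called. Atf7ip, the cofactor that stabilises SETDB1 in the nucleus, rose by 1.55 in log2 CPM (SE 0.16, edgeR adjusted p = 3.36e-07), from 153 to 292 CPM at GV to 569.7 to 727 at MII. Pphln1, a subunit of the HUSH silencing complex, fell by 0.63 (SE 0.16, edgeR adjusted p = 0.0027). Of 4 G9a and GLP partners 2 were higher and 1 lower: the chromodomain protein gene Cdyl rose by 1.34, while its paralogue Cdyl2 fell by 1.36.

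The other lysine 9 methyltransferases gave 2 higher and 1 lower of 4, with Prdm16 up by 1.27 and Setdb2 down, at -0.52 (edgeR adjusted p = 0.0116). The readers gave 2 higher and 1 lower of 4. Cbx1, which codes for HP1β, rose by 0.65 in log2 CPM (edgeR adjusted p = 0.000575), and Cbx5, which codes for HP1α, fell by 0.67 (edgeR adjusted p = 0.00132). In CPM all MII oocytes lay above all GV oocytes for Cbx1, as for 24.4% of the genes that passed the filter at each stage. For Cbx5 they lay below, as for 26.5% of the 11375 genes tested. Those 11375 include 1244 genes that passed the filter only through the GV libraries. In FPKM the stages of Cbx1 overlapped, with up to 76.3 at GV and down to 74.95 at MII. Of 12 genes listed as lysine 9 demethylases 9 passed the filter at each stage, 5 were higher, 0 lower and 4 not called. The 5 were Kdm1a, Kdm1b, Kdm3a, Kdm3b and Kdm7a, and which lysine each acts on in the oocyte was not measured. Kdm7a rose by 2.06 (SE 0.22, edgeR adjusted p = 4.33e-07), while Kdm4b, with 0.374 to 9.45 CPM at GV and 0 to 1.31 at MII, is given without a test.

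**Figure D5:**
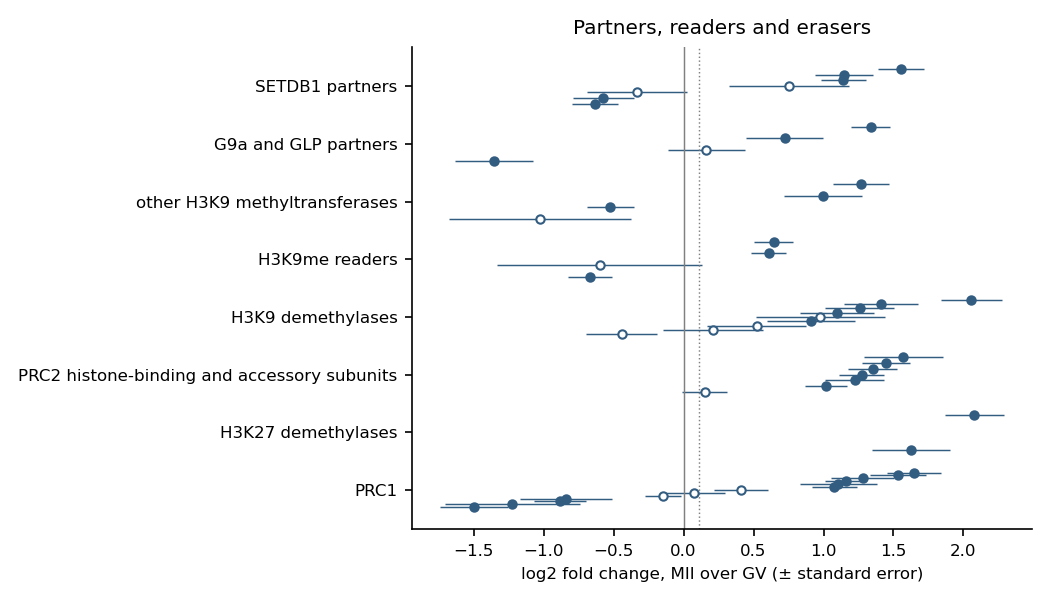
Log2 fold change of MII over GV (mean of both types, ± standard error, edgeR) for the 50 partner, reader and eraser genes of 8 lists that passed the filter at each stage; filled circles were called at an adjusted p under 0.05, the solid line is no change and the dotted line the median of all such genes at 0.11. Of the accessory PRC2 subunits 6 of 7 are filled on the right, and the PRC1 genes fall on both sides.

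Genes with the nearest profile over the 13 oocytes were sought among 11524 genes by the root mean square difference of centred log2(FPKM + 1). Bpgm was nearest to Ezh2, at 0.0841, Sfr1 to Eed at 0.131 and Patj to Ezh1 at 0.132. Lpin2 was nearest to Ehmt1 at 0.193, Hmgxb4 to Suz12 at 0.208, Zfp142 to Setdb1 at 0.214 and Taf5 to Suv39h2 at 0.239. Ehmt2 and Suv39h1 averaged under 1 FPKM and were not compared. The points share libraries and the difference between stages.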

How the data were processed

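SMART-seq2 libraries of 13 single oocytes were analysed, each counted as 1 replicate and grouped by its labels. Per the submitters' notes the authors trimmed reads with Trim Galore 0.4.4, mapped them to mm10 with Bowtie2 2.3.5 and quantified genes with RSEM 1.2.28; DESeq2 1.20.0 was named for normalization. RSEM's expected count per gene was deposited in 1 table per stage, unnormalized, with reads of several genes shared out. FPKM, scaled by gene length and library size, was deposited in 1 table.

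Counts were rounded to whole numbers. Genes passing filterByExpr were scaled by TMM and tested by edgeR 4.0.16 (R 4.3.3), quasi-likelihood, with Benjamini-Hochberg adjustment over all genes tested and a threshold of 0.05. NSN and SN oocytes were fitted within a stage, and stages and the interaction over all libraries with 1 mean per group. CPM used TMM factors over all libraries, and fold changes are on the log2 scale. The fits were tested on simulated data. The standard errors hold the spread between 3 or 4 oocytes and the counting error together, and a floor of 3 counts per library, used for low genes, covers counting error only. Genes with fewer than 3 libraries over the limit of filterByExpr at either stage were left out of counts of calls between stages, a choice made after the values were seen. Gene positions and 3′ ends came from GENCODE M21 on GRCm38, in which 18887 of 18939 symbols (99.7%) were found.

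The 9 genes and the 60 partner genes were chosen with earlier results of these data known. Named were the 9 genes, and in each partner list the called genes with the largest rise and fall between stages. Also named were any partner called between NSN and SN, the gene nearest in profile to each of the 9, and 4 marker genes. Kdm6a, Rbbp4, Rybp, Kdm4d, Cbx7, Kdm1a, Kdm1b, Kdm3a and Kdm3b were named after their values were seen. Alternatives were DESeq2 1.42.0, DESeq2's size factors, total counts, no filter, limma 3.58.1 (trend) on log2(FPKM + 1) or log2(FPKM + 0.1) with or without a filter at a mean of 1 FPKM, the replicate number as a block, all libraries in 1 fit, and each library left out. No value column was left unused.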

Additional observations from a re-analysis of the deposited data

Results flagged for a closer look

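In the SN-MII oocytes 1 library stood apart for Suv39h1: SN-MII 1 had 0.265 CPM against 0.128, 0.131 and 0.136 in the others, and its gap to the next value was 0.942 of the range of the 4 libraries, above Dixon's 95% critical value. The values stand for 2.22, 1.09, 1.10 and 1.29 counts, so the gap is about 1 count. A gap past that critical value arises by chance in about 1 in 20 groups.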

How the results depend on the processing

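Over all comparisons and alternatives, 839 log2 fold changes of the 9 genes were recomputed, those of Suv39h1 between stages left out: 818 kept their side of the threshold, 17 lost a call, 4 gained one and 0 called values changed sign, as given beside the genes above, where limma on FPKM also called Eed in SN oocytes (edgeR did not), at an adjusted p of 0.0480 or 0.0452, and in NSN oocytes Suv39h2 was lost with total counts (0.0561) and limma on FPKM (0.0625 to 0.121) and Eed with total counts (0.0949). The number of the 9 genes called between stages ranged from 4 to 7 against 6, and of the partner genes from 33 to 41 against 37; the 7 and the 41 were also the counts with genes that passed the filter at either stage, an alternative chosen after seeing the data. Neither set had a call between NSN and SN oocytes or in the interaction under any setting. The cause of these changes was not tested.

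Correlations of same-numbered NSN and SN oocytes ran from -0.459 to -0.206 at GV and from -0.119 to 0.0967 at MII. Those of differently numbered oocytes ran from -0.176 to 0.403 at GV and from -0.189 to 0.163 at MII. With 3 or 4 oocytes per group these values cannot show whether the numbers pair the oocytes. With the replicate block 6 of the 9 genes and 35 partner genes were called between stages, 4 and 27 in SN and 6 and 33 in NSN oocytes, and over all genes 0 at GV, 2 at MII and 7446 between stages.

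Over all genes the 26 calls at MII became 16 with total counts, 89 without a filter, 69 in 1 fit of all libraries and 2 to 4 with limma, and at GV limma called 1. The 2 interaction calls became 3 with total counts, 6 without a filter, 1 to 4 with limma and 0 to 12 without 1 library. Ehmt2, and Suv39h1 at MII, had too few counts for a change to be seen at this depth.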
